A study of Sus scrofa with 12 samples.

Results

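Glycolysis splits glucose into pyruvate in the cytosol, and lactate dehydrogenase then reduces pyruvate to lactate when oxygen or mitochondria are limiting. Fast skeletal muscle fibres hold high levels of these enzymes and fuel them from stored glycogen. After slaughter the same reactions go on without oxygen, lactate and acid build up, and the rate and extent of the fall in pH are known to bear on how much water the meat later loses as drip. The genes described here are those of 10 enzymes of this route, namely GPI, PFKM, ALDOA, TPI1, PGK1, PGAM2, ENO3, PKM, LDHA and LDHB. They were taken by symbol from the counted features, of which there were 20741 in all, 20300 of them Ensembl genes and 10349 of these paired with a symbol. Of the 10 genes, 7 had an identifier in the count tables and 6 had counts.

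Muscle RNA was sequenced from 12 pigs (Sus scrofa), 6 labelled high drip and 6 labelled low drip, with 3 males and 3 females at each level. High drip animals were 176 ± 6.92 days old, from 167 to 186 days, and low drip animals 178 ± 6.74 days old, from 172 to 189 days (mean ± SD, n = 6 each). No treatment, genotype or breed is given, the muscle is not named, and each library comes from 1 animal. Libraries held 8009627 to 12622043 counts on features, with a median of 9749102.5. Levels are CPM, counts divided by the library total and put on a common scale with trimmed-mean (TMM) factors, and are not divided by transcript length.

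The count tables were given to animals by the number in their names. For 9 animals this is also the animal the table is recorded for. For 3 females, high drip replicate 2 and low drip replicates 1 and 2, the recorded table carries another animal's number. Taken by number, each animal's whole-genome table shared 737 to 745 of 770 counts with its own table of selected regions, against at most 167 with any other animal's, and the alignment totals of the 2 tables were equal in 12 of 12 animals. Where the assignment of these 3 females moved a drip fold over the 12 animals by more than 1.5 times, the value as recorded is given beside it. For relations with age, it is given for r over all 12 animals. Subsets of animals, residuals from age and fits with age as a term are by number only. Liver transcripts marked 6 libraries, in which albumin (ALB) was above 10 CPM: high drip replicates 1 to 4 and low drip replicates 5 and 6. Taken by number, all 3 high drip females and none of the low drip females were among them. As recorded, high drip replicate 2 would not be among them, and low drip replicate 1 would be.

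The tissue label was checked against fibre markers. Of 14 fast fibre markers 7 were in the tables, and their summed level ran from 82610 to 90834 CPM in high drip animals, with a median of 85373, against 77081 to 87923 CPM in low drip animals, with a median of 82252. Of 13 slow fibre markers 4 were in the tables, with sums of 7267 to 10111 CPM in high drip animals against 6950 to 9795 CPM in low drip animals. These sums are without TMM, whereas the folds that follow are with TMM. Each of these markers had a fold above 0 in high over low drip, 7 of 7 fast and 4 of 4 slow, against 50.6% of all tested features. The medians were 0.05 and 0.14 on the log2 scale, and no marker passed the test described below. Whether these markers vary together was not tested, so their folds are not counted as separate observations. In whole muscle, fewer fibres of a type and less RNA per fibre cannot be told apart.

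GPI (ENSSSCG00000002873) encodes glucose-6-phosphate isomerase, which turns glucose-6-phosphate into fructose-6-phosphate. It had 3761, 3726 and 2924 CPM in high drip males and 3878, 3351 and 3926 CPM in high drip females, against 3368, 3224 and 3495 CPM in low drip males and 4143, 3076 and 4726 CPM in low drip females. The groups overlapped throughout, and the highest level was in a low drip female and the lowest in a high drip male. PFKM (ENSSSCG00000021129) encodes the muscle form of phosphofructokinase, the enzyme of the committed step. It had 4838, 4937 and 3917 CPM in high drip males and 4436, 4052 and 5364 CPM in high drip females, against 4704, 3823 and 4233 CPM in low drip males and 4741, 4027 and 5611 CPM in low drip females. The same low drip female, replicate 3, was the highest of the 12 for both genes.

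Aldolase A (ALDOA) and phosphoglycerate kinase 1 (PGK1) had no identifier paired with their symbol among the counted features and were not analysed here. Triose-phosphate isomerase (TPI1, ENSSSCG00000000685), which interconverts the products of aldolase, was listed with 0 counts in all 12 libraries. A count of 0 allows up to 3 counts, or 0.238 to 0.375 CPM depending on the library, for counting error only. That limit does not cover reads counted under another identifier or set aside as not unique. Absence of the TPI1 transcript can therefore not be read from the 0. GAPDH, the dehydrogenase of the next step and not one of the 10, averaged 25371 ± 3891 CPM in high drip animals and 22599 ± 2935 CPM in low drip animals (SD, n = 6 each), a log2 fold of 0.17 ± 0.11, and of 0.089 ± 0.12 with tables as recorded.

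PGAM2 (ENSSSCG00000016720) encodes the muscle form of phosphoglycerate mutase. Its level ranged from 4190 to 6055 CPM in high drip animals, with a median of 4758, against 3277 to 6216 CPM in low drip animals, with a median of 4132. ENO3 (ENSSSCG00000017904) encodes beta enolase, the enolase of adult muscle. It ranged from 24253 to 32943 CPM in high drip animals, with a median of 26899, against 19516 to 28770 CPM in low drip animals, with a median of 24888. Both genes overlapped between the groups.

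PKM (ENSSSCG00000001930) encodes the pyruvate kinase of muscle, which makes the last ATP of the route. It ranged from 11308 to 15942 CPM in high drip animals, with a median of 14496, against 10880 to 16894 CPM in low drip animals, with a median of 11789. Among males alone, PKM had 15620, 14909 and 12322 CPM in high drip animals against 12299, 11279 and 11150 CPM in low drip animals. These 3 and 3 males did not overlap, with the closest pair almost level, while the females did. Of the 6 counted members PKM alone separated the males, and so did 9.65% of the 10411 features tested for drip, 4.62% with high drip above low drip.

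LDHA (ENSSSCG00000013366) encodes the M subunit of lactate dehydrogenase, which predominates in fast muscle. It had 18681, 16220 and 16921 CPM in high drip males and 19469, 19032 and 18984 CPM in high drip females, against 16811, 18391 and 16693 CPM in low drip males and 14264, 15866 and 17661 CPM in low drip females. The 3 high drip females stood above the 3 low drip females with no overlap, and the males overlapped. Of the 6 counted members LDHA alone separated the females, and so did 6.85% of the 10411 tested features, 3.08% with high drip above low drip. The separation of the females rests on the assignment of tables by number. Under the assignment as recorded, the value of 19032 CPM belongs to low drip replicate 1, 14264 CPM to low drip replicate 2 and 15866 CPM to high drip replicate 2, and the females overlap. By number, the separation also coincides with the liver transcripts, present in all 3 high drip females and in none of the low drip females. Drip and liver transcripts can then not be told apart among the females. As recorded, the library with ALB at 316.5 CPM belongs to low drip replicate 1 and that with 0.756 CPM to high drip replicate 2. This coincidence therefore rests on the assignment by number too. LDHB, the H subunit that predominates in heart and slow muscle, had no identifier paired with its symbol among the counted features, so no ratio of LDHA to LDHB could be formed.

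**Figure D1:**
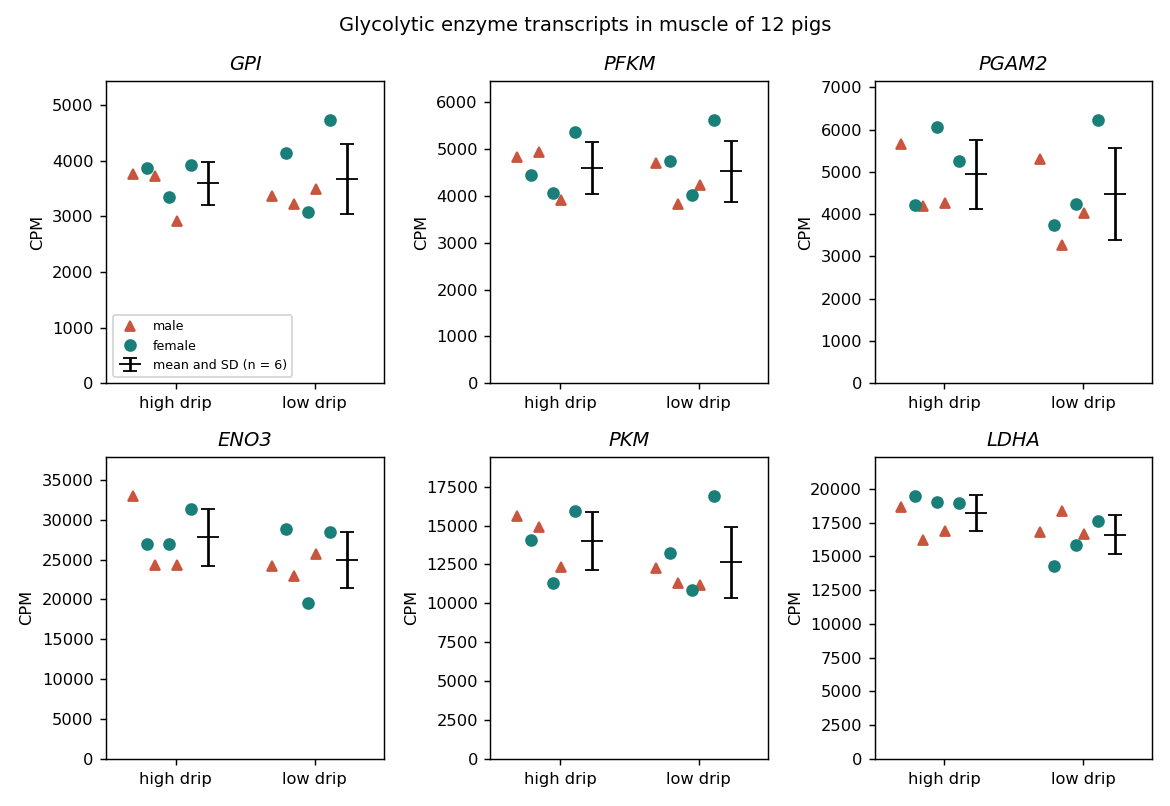
Level of each of the 6 counted glycolytic enzymes in CPM (y axis, from 0) for the 6 high drip and 6 low drip pigs, with triangles for males, circles for females and a bar for the mean and SD of each group. The drip groups overlap in every panel, and for LDHA the 3 high drip females lie above the 3 low drip females, as do 3.08% of all tested features. With tables as recorded the females overlap for LDHA too.

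By reads, ENO3, LDHA and PKM held places 1, 2 and 3 among the 6 genes in 12 of 12 animals, with means of 26341 ± 3707, 17416 ± 1561 and 13329 ± 2110 CPM (SD, n = 12). PGAM2 at 4703 ± 954 CPM and PFKM at 4557 ± 576 CPM followed, each above the other in 6 animals, and did not differ beyond their spread. GPI, at 3633 ± 502 CPM, was last in 11 of 12 animals. This is an order of reads and not of transcripts, because longer transcripts give more reads and no lengths were used here. Among the 10411 features tested for drip, the 6 genes ranked 5, 9, 12, 29, 31 and 38 by mean CPM. Together they took 7.26 ± 0.299% of all feature counts in high drip animals, from 6.96% to 7.83%, and 6.68 ± 0.504% in low drip animals, from 6.17% to 7.40% (SD, n = 6 each). The highest share was in high drip male replicate 4, the lowest in low drip female replicate 2, and the groups overlapped.

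LDHA varied least among the 12 animals and PGAM2 most. The SD of log2 CPM was 0.133 for LDHA, 0.180 for PFKM, 0.195 for GPI, 0.206 for ENO3, 0.225 for PKM and 0.292 for PGAM2. Of the 97 features with a mean of at least 1000 CPM, 3 had a smaller SD than LDHA and 77 a smaller SD than PGAM2, and the median of the 97 was 0.206. The highest animal had 1.36 times the level of the lowest for LDHA, 1.47 times for PFKM, 1.62 times for GPI, 1.69 times for ENO3, 1.55 times for PKM and 1.90 times for PGAM2.

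The drip contrast asks whether muscle that loses more water carries other levels of these transcripts. No member passed the test. Counts were fitted with edgeR's quasi-likelihood test over all features with sex as a term, and p-values were adjusted by Benjamini-Hochberg with a threshold of 0.05. Of 10411 features 0 passed, or 0.0%, and 369, or 3.54%, had an unadjusted p under 0.05. DESeq2 and limma voom also called 0, with 355 and 361 at an unadjusted p under 0.05. Of the 6 members 0 were under 0.05 unadjusted, and each had an adjusted p of 0.9993.

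The log2 fold of high over low drip was 0.13 ± 0.10 for LDHA, 0.16 ± 0.12 for ENO3, 0.16 ± 0.13 for PKM, 0.15 ± 0.16 for PGAM2, 0.024 ± 0.12 for PFKM and -0.026 ± 0.12 for GPI (± SE of the edgeR fit). Folds were above 0 for 5 of 6 members, against 50.6% of all tested features, and their median was 0.14 against 0.0028 over all features. The genes vary together, as described below, so these folds are not separate observations. The interval of 2 SE ran from -0.07 to 0.33 for LDHA, from -0.09 to 0.41 for ENO3, from -0.11 to 0.42 for PKM and from -0.17 to 0.46 for PGAM2. For PFKM it ran from -0.21 to 0.26 and for GPI from -0.26 to 0.21. Among the 6 libraries without liver transcripts alone, the folds were -0.021 ± 0.27 for LDHA, 0.0096 ± 0.31 for ENO3, 0.15 ± 0.32 for PKM and -0.33 ± 0.33 for PGAM2. No high drip female was among these libraries, and sex was a term. These folds therefore compare high drip male replicates 5 and 6 with low drip male replicate 4 alone. With tables as recorded, LDHA had a fold of 0.05 ± 0.11, ENO3 of 0.025 ± 0.13 and PGAM2 of -0.031 ± 0.16, and PKM had 0.14 ± 0.13. GPI then had -0.061 ± 0.12 and PFKM 0.021 ± 0.12.

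The product of drip and sex tests whether the drip difference is unlike in males and females. It called 0 of 10627 features by edgeR, or 0.0%, with 371, or 3.49%, at an unadjusted p under 0.05. DESeq2 called 7 and limma voom 0, the second with 340 at an unadjusted p under 0.05. No member was under 0.05 unadjusted. The ends of the members' range were LDHA, at -0.27 ± 0.19 on the log2 scale, and PKM, at 0.29 ± 0.26, each with an adjusted p of 0.9999. LDHA had a drip fold of -0.0022 ± 0.14 in males and 0.27 ± 0.16 in females, and PKM had 0.30 ± 0.15 in males and 0.013 ± 0.21 in females. The product for LDHA was -0.096 ± 0.21 with tables as recorded, -0.14 ± 0.22 in the 9 animals with their own number and -0.12 ± 0.27 with liver transcripts as a term. For PKM it was 0.32 ± 0.26, 0.46 ± 0.24 and 0.33 ± 0.37 in the same settings. Low drip replicate 3 is the only low drip female among the 9 animals, so both products there rest on that animal. It had the highest PKM level of all animals. Leaving out single animals from the full set, the product for PKM ran from 0.11 without low drip replicate 3 to 0.43 without low drip replicate 2.

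Levels in males were set against those in females with drip as a term. No member passed, and all 6 had a fold below 0, against 49.9% of all features. As for drip, genes that vary together do not give separate observations. The log2 folds were -0.17 ± 0.12 for GPI, -0.15 ± 0.16 for PGAM2, -0.09 ± 0.12 for PFKM, -0.09 ± 0.13 for PKM, -0.07 ± 0.12 for ENO3 and -0.015 ± 0.10 for LDHA, with adjusted p-values of 0.803 to 0.985 by edgeR. Scaled to total counts alone, without TMM, they ran from -0.11 for GPI to 0.040 for LDHA, which was then above 0. GPI averaged 3416 ± 317 CPM in males and 3850 ± 584 CPM in females (SD, n = 6 each), and the sexes overlapped. In the 9 animals with their own number the folds were farther from 0. They were -0.30 ± 0.12 for GPI, -0.26 ± 0.13 for PKM and -0.22 ± 0.13 for PFKM. Low drip replicate 3 is the only low drip female among these 9 and had the highest level of each of these genes. Leaving out that female alone from the full set, the folds were -0.10 for GPI, 0.0029 for PKM and -0.028 for PFKM. The lowest folds on leaving out 1 animal were -0.23, -0.17 and -0.14 in the same order. Over all features edgeR called 0, or 0.0%, with 679, or 6.52%, at an unadjusted p under 0.05. DESeq2 called 6 and limma voom 0, the second with 698 at an unadjusted p under 0.05.

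**Figure D2:**
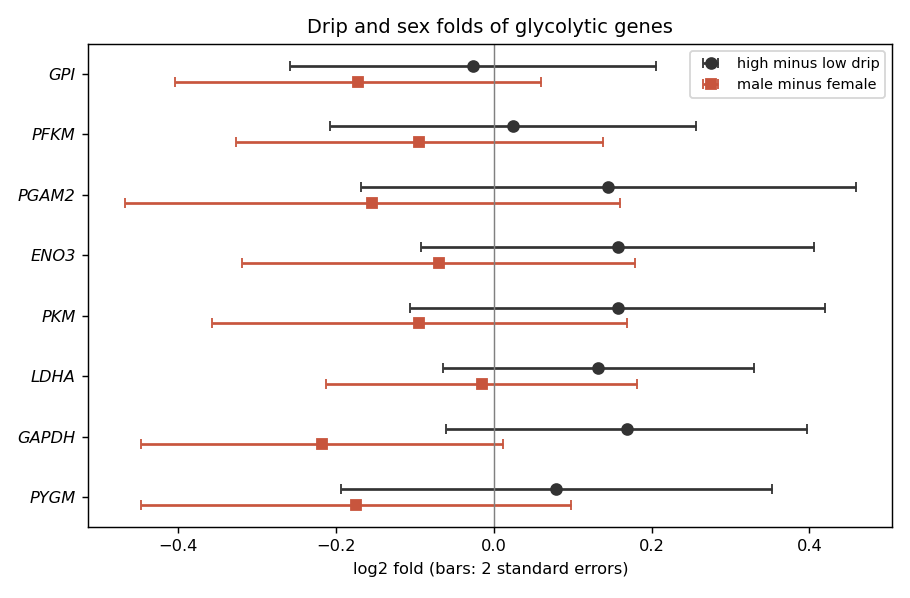
Log2 fold (x axis) of the 6 members and of GAPDH and PYGM, with circles for high minus low drip, squares for male minus female, and bars of 2 standard errors from the edgeR fits. All 16 bars cross 0.

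The 6 genes did not all vary together over the 12 animals. PFKM, GPI, PKM and ENO3, which span the route from its second step to its last, had a median Pearson r of 0.751 over their 6 pairs in log2 CPM. PFKM and PKM were the closest pair, with r = 0.891 and rho = 0.846, and PFKM and GPI followed with r = 0.857 and rho = 0.860, each with an adjusted permutation p of 0.00338 for r over 15 pairs. For GPI and PKM r was 0.791 and rho 0.762, with an adjusted permutation p of 0.0110 for r. For ENO3 and PKM r was 0.712 and rho 0.720, with an adjusted permutation p of 0.0309 for r. ENO3 had r = 0.670 with GPI and 0.635 with PFKM, which passed by rho and not by r, with adjusted permutation p-values for r of 0.0518 and 0.0639.

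Of the 15 pairs, PFKM with GPI and PFKM with PKM had the ratios of counts that varied least from animal to animal. Ratios of other features were not compared. The SD of the log2 ratio of counts was 0.105 for PFKM over PKM and 0.101 for PFKM over GPI, against 0.289 for GPI over PGAM2, the widest of the 15. Of the 10410 other tested features, 2 had a higher r with PFKM than PKM had, and 5 a higher r than GPI had. The median r of a member with all features was between -0.012 and -0.025. Without the 2 animals farthest from the median of the first gene, r was 0.838 for PFKM and PKM, 0.778 for PFKM and GPI, 0.786 for GPI and PKM and 0.602 for ENO3 and PKM. The last no longer passed, with an adjusted permutation p of 0.142. As deviations from the 4 drip and sex group means, r was 0.933 for PFKM and PKM and 0.860 for PFKM and GPI. Among the libraries with and without liver transcripts apart, r was 0.911 and 0.887 for PFKM and PKM and 0.887 and 0.929 for PFKM and GPI (n = 6 each).

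LDHA stood apart from this group in its r values. It had r = 0.017 with PFKM, 0.030 with GPI, 0.231 with PKM, 0.349 with ENO3 and 0.413 with PGAM2, a median of 0.231, and none of these passed. Of 10410 features, 4828 had a higher r with LDHA than PFKM had. Scaled to total counts alone, without TMM, LDHA's r turned to -0.362 with PFKM, -0.442 with GPI, -0.099 with PKM and -0.059 with ENO3, so no direction is given for these 4. PGAM2 had r between 0.347 and 0.529 with PFKM, GPI, ENO3 and PKM, and none of these passed. Whether the correlations of LDHA differ from those of the other members was not tested.

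**Figure D3:**
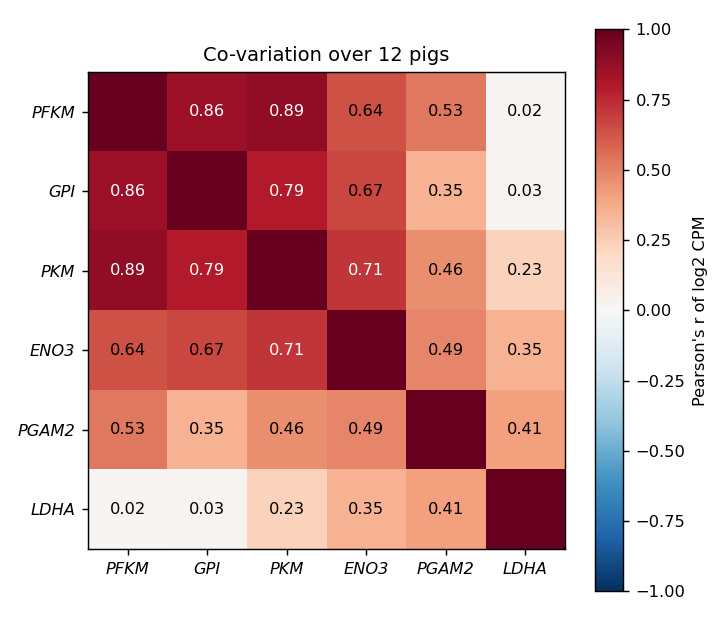
Pearson's r of log2 CPM over 12 pigs for each pair of the 6 counted members, with colour from -1 to 1 and the value in each cell. PFKM, GPI, PKM and ENO3 form a block of r from 0.64 to 0.89, and the LDHA row is the palest. Scaled to total counts alone, without TMM, ENO3 had r from 0.374 to 0.543 with PFKM, GPI and PKM.

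Among features with a symbol and outside the 10, those with the highest r over 12 animals differed from member to member. Up to 8 other features, members or features with no symbol among them, had a higher r than a gene named here. The genes were GHITM, TMEM9B and OAZ1 for LDHA, with r of 0.858, 0.838 and 0.821. For PFKM they were PEX5, SMYD1 and GYS1, with r of 0.898, 0.846 and 0.832. For GPI they were SGTA, PACS1 and CLPTM1, with r of 0.872, 0.870 and 0.869. PGAM2 had COPE, TRAF2 and YIF1B, with r of 0.925, 0.919 and 0.908. ENO3 had GAPDH, MICOS13 and MYBPC2, with r of 0.884, 0.860 and 0.825. PKM had PRDX2 and SMYD1, each with r of 0.887. SMYD1 was the single name on more than 1 of these lists.

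PFKM and GPI also went with age and with a property of the libraries, and the other members did not pass for either. The family held 42 relations, between the 6 members and 7 measures of the animals and libraries, and the measures were chosen with the values known. PFKM was higher in older animals, with r = 0.831 and rho = 0.782 against age in days, and adjusted permutation p-values of 0.0155 for r and 0.0617 for rho. GPI had r = 0.820 and rho = 0.733, with adjusted permutation p-values of 0.0155 and 0.0888. Without the 2 animals farthest from the median age, r was 0.740 for PFKM and 0.777 for GPI. Among libraries with and without liver transcripts apart, r was 0.655 and 0.966 for PFKM and 0.754 and 0.895 for GPI (n = 6 each). Among males and females apart, r was 0.725 and 0.927 for PFKM and 0.611 and 0.968 for GPI (n = 6 each). These values are by number. All 3 animals whose recorded table carries another number are females, and r among females was not computed with tables as recorded. Among the 9 animals whose recorded table carries their own number, r was 0.820 for PFKM and 0.812 for GPI, and with tables as recorded for all 12 it was 0.691 and 0.645. The unadjusted permutation p for r was then 0.0131 for PFKM and 0.0229 for GPI, against 0.0009 and 0.00111 by number. As recorded, rho was 0.669 for PFKM and 0.535 for GPI, with unadjusted permutation p-values of 0.0205 and 0.0761. For PKM r was 0.684 with an adjusted permutation p of 0.130, and for ENO3, PGAM2 and LDHA it was 0.271, 0.268 and -0.133. With tables as recorded, r was 0.570 for PKM, 0.219 for ENO3, 0.531 for PGAM2 and 0.215 for LDHA.

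The share of alignments that fell outside every feature ran from 24.2% to 29.3%. GPI was lower where this share was higher, with r = -0.864 and rho = -0.860 and adjusted permutation p-values of 0.0130 and 0.0252. Without the 2 farthest animals r was -0.814, and among libraries with and without liver transcripts it was -0.845 and -0.959. PFKM had r = -0.794 and rho = -0.776, with adjusted permutation p-values of 0.0279 and 0.0617, and r = -0.623 without the 2 farthest animals. PKM had r = -0.660, ENO3 -0.519, PGAM2 -0.419 and LDHA -0.069, and none of these passed. Of all tested features, 0.135% had an r with this share farther from 0 than GPI's, and 1.08% one farther from 0 than PFKM's. Scaled to total counts alone, without TMM, r with this share was -0.809 for GPI and -0.659 for PFKM. It was then -0.5425 for PKM, -0.388 for ENO3, -0.268 for PGAM2 and 0.310 for LDHA.

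Age and this share went together over the 12 animals, with r = -0.795 and rho = -0.821, and r = -0.678 with tables as recorded, so the 2 cannot be told apart here. On residuals from age, r was 0.794 for PFKM and PKM, with an adjusted permutation p of 0.0179, and 0.550 for PFKM and GPI, with an adjusted permutation p of 0.137. On residuals from the share outside features, the values were 0.803 and 0.557, with adjusted permutation p-values of 0.0279 and 0.227. By r, PFKM and PKM therefore passed in both, and PFKM and GPI in neither. ENO3 with GPI, PFKM and PKM also passed by r on residuals from age, at 0.812, 0.765 and 0.749, and not on those from the share. By rho, GPI and ENO3 alone passed on residuals from age, and PFKM and PKM alone on those from the share. The drip groups were close in age, and with age as a term the drip fold was 0.059 ± 0.088 for PFKM and 0.0078 ± 0.092 for GPI. With albumin, LDHA had r = 0.634 and an adjusted permutation p of 0.159, and within the libraries with and without liver transcripts r was 0.129 and -0.469. The part of age, library or liver transcripts in these results was not tested further.

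**Figure D4:**
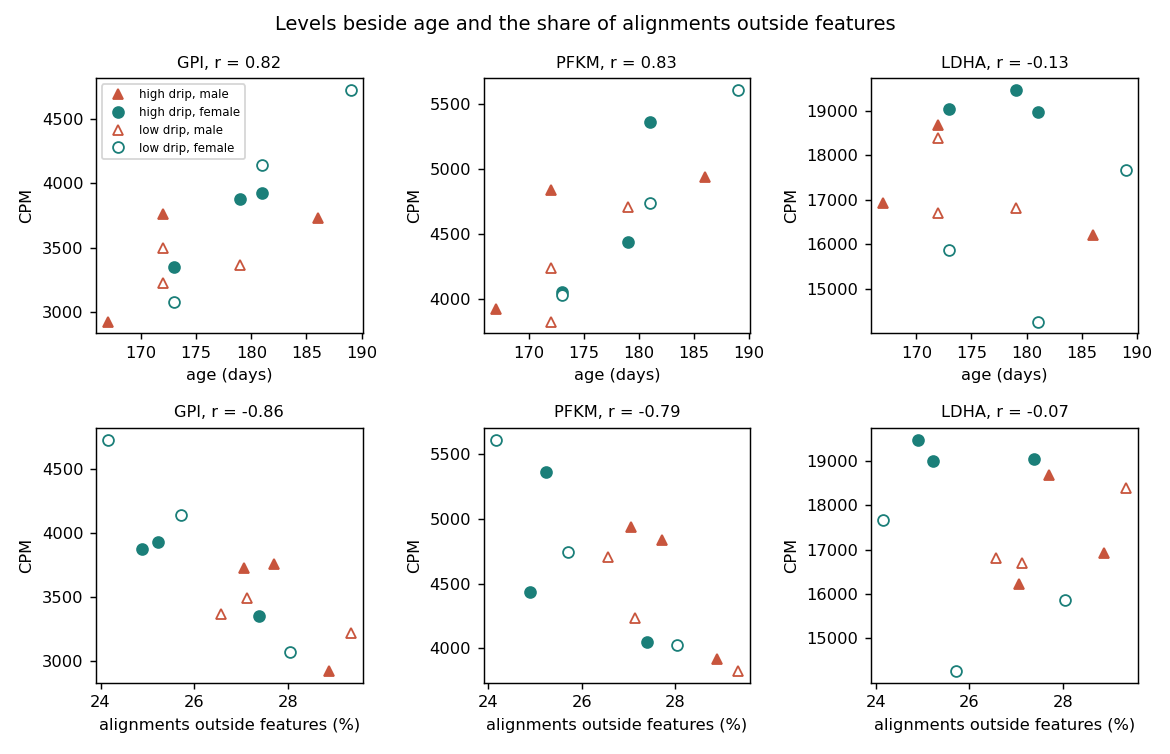
Level in CPM (y axes, not from 0) of GPI, PFKM and LDHA against age in days (upper row) and the percent of alignments outside features (lower row), with filled symbols for high drip, open symbols for low drip, triangles for males and circles for females. GPI and PFKM climb with age and drop with the share outside features, and LDHA shows neither.

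None of the other genes of the pathway passed the drip or the sex test. Of 26 other glycolytic isoenzymes and regulators 16 were tested, with 12 folds above 0 and 4 below in high over low drip and a median of 0.09. For this list and those below, the share above 0 over all tested features was 50.6% for drip. The smallest unadjusted p was that of LDHD, a mitochondrial dehydrogenase of D-lactate. It had 25.3 to 53.7 CPM in high drip animals, with a median of 30.3, against 14.5 to 30.9 CPM in low drip animals, with a median of 21.2. The log2 fold was 0.62 ± 0.20 with an unadjusted p of 0.00667 and an adjusted p of 0.9993 by edgeR, and 0.26 ± 0.25 with tables as recorded. All 6 high drip animals were above the low drip median, and the groups overlapped. ALDOC, the aldolase of brain, had a fold of -0.45 ± 0.27.

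Glycogen feeds the route in working and in dying muscle, through glycogen phosphorylase (PYGM) and the kinase that activates it. Of 12 genes of glycogen metabolism 11 were tested, with 8 folds above 0 and 3 below in high over low drip and a median of 0.06. PYGM averaged 22623 ± 3569 CPM in high drip animals and 21385 ± 3703 CPM in low drip animals (SD, n = 6 each), a log2 fold of 0.08 ± 0.14, and of -0.051 ± 0.14 with tables as recorded. PHKG1, the catalytic subunit of phosphorylase kinase in muscle, had 167 to 255 CPM in high drip animals, with a median of 237, against 150 to 224 CPM in low drip animals, with a median of 177. Its fold was 0.32 ± 0.12, with an unadjusted p of 0.0191 and an adjusted p of 0.9993 by edgeR. PHKB, a regulatory subunit of the same kinase, had a fold of 0.23 ± 0.11 and an unadjusted p of 0.0602 by edgeR.

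Of 23 regulators of glycolytic genes 17 were tested, with 7 folds above 0 and 10 below and a median of -0.017. MYC, a transcription factor known to drive glycolytic genes in dividing cells, had 9.38 to 24.3 CPM in high drip animals, with a median of 15.6, against 12.2 to 44.5 CPM in low drip animals, with a median of 25.4. Its fold was -0.68 ± 0.30, with an unadjusted p of 0.0366 and an adjusted p of 0.9993 by edgeR. Among libraries without liver transcripts it was 0.08 ± 0.53, which compares high drip male replicates 5 and 6 with low drip male replicate 4 alone. With tables as recorded the fold was -0.25 ± 0.34, and -0.24 ± 0.31 in the 9 animals with their own number. PPARD, a nuclear receptor of fatty acid use in muscle, had a fold of -0.37 ± 0.19. Pyruvate and lactate handling had 7 folds above 0 and 4 below among 11 tested genes, glucose uptake and the cytosolic NADH shuttles 7 and 2 among 9, and gluconeogenesis 2 and 1 among 3.

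In males over females, the smallest unadjusted p-values above 0 were those of MPC2, TIGAR and PPP1R3A. MPC2, a subunit of the carrier that takes pyruvate into mitochondria, averaged 119 ± 11.2 CPM in males and 98.4 ± 9.77 CPM in females (SD, n = 6 each), a log2 fold of 0.28 ± 0.09 with an adjusted p of 0.668 by edgeR. TIGAR, a phosphatase that lowers fructose-2,6-bisphosphate, had a fold of 0.47 ± 0.17, and PPP1R3A, which brings protein phosphatase 1 to glycogen, 0.38 ± 0.16. On the other side stood GPD1, the cytosolic glycerol-3-phosphate dehydrogenase, at -0.25 ± 0.11, PC, pyruvate carboxylase, at -0.37 ± 0.16, and ADPGK, an ADP-dependent glucokinase, at -0.36 ± 0.18. Their adjusted p-values were 0.683, 0.739, 0.743, 0.759 and 0.759 by edgeR.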

How the data were processed

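The labels give muscle mRNA of 12 pigs with drip level, sex and age. Per the labels' protocols, RNA was extracted with Trizol and DNase and made into TruSeq v2 libraries. Per the submitters' processing notes, TopHat2 2.0.3, Bowtie 0.12.7.0, HTSeq and the build Sscrofa10.2 were used. The deposited values are raw counts per feature. Strand setting and annotation release are not given in the sources used here. Between 24.2% and 29.3% of alignments were in no feature, 12.8% to 15.5% not unique and 0.653% to 0.785% ambiguous, and these stayed out of totals and tests.

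Counts were fitted with edgeR 4.0.16 in R 4.3.3 (TMM, filterByExpr, quasi-likelihood F-test, two-sided, Benjamini-Hochberg over all tested features), with drip and sex, or their product added. Checks used DESeq2 1.42.0 and limma 3.58.1 voom, and the steps were tested on simulated data. Correlations used log2 CPM (prior count 2) and 100000 permutations. Symbols were matched by exact identifier. Named are the 10 enzymes, GAPDH, PYGM, the 3 genes of the other lists with the smallest p each way, and the 3 most alike genes with a symbol per member. For PKM, 1 of these 3 genes is left out of the text. Members and lists were chosen with earlier results of these data known. No genome of the files' build, transcript length or sequence was used here, so none is printed and levels are not per length. Giving tables to animals by number was set against the assignment as recorded.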

Additional observations from a re-analysis of the deposited data

Results flagged for a closer look

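In 4 cases 1 animal lay far from the other 5 of its group of 6, with a gap to its nearest neighbour that was large against the group's range by Dixon's criterion. ENO3 was 32943 CPM in high drip replicate 4 among males, where the others had 22917 to 25643 CPM. GAPDH was 28389 CPM in the same animal, where the other males had 19490 to 22258 CPM. ENO3 was 19516 CPM in low drip replicate 2 among females, where the others had 26890 to 31292 CPM. This female is 1 of the 3 whose recorded table carries another number. PYGM was 15924 CPM in high drip replicate 6, where the other high drip animals had 22560 to 26643 CPM. The rule was applied to 56 groups, and chance flags about 1 in 20. Without high drip replicate 4 the drip fold of ENO3 was 0.08 and that of GAPDH 0.10 on the log2 scale, and without high drip replicate 6 that of PYGM was 0.16.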

How the results depend on the processing

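No feature passed in any fit that left out 1 animal, with counts of 0 to 0 for drip, sex and their product. Other settings called 3 features for drip in libraries without liver transcripts, 6 for sex by DESeq2, 1 without a filter and 5 in libraries without liver transcripts, and 7 by DESeq2 and 1 with a liver term for the product. No member passed in any of the drip and sex settings, nor LDHA or PKM, the 2 followed, in those of the product. Of the named folds 653 values kept their direction and 31 turned, all within 2 SE of 0. For drip, the turned log2 folds were LDHA -0.0022 in males and -0.021 in libraries without liver transcripts, PFKM -0.052 in females and -0.088 without liver transcripts, GPI 0.0078 with age and 0.046 in males, PGAM2 -0.016 in the 9 animals with their own number, -0.031 as recorded and -0.33 without liver transcripts, and PYGM -0.017, -0.051 and -0.19 in the same 3 settings. Without liver transcripts MYC was 0.081 and PPARD 0.075. For sex, LDHA was 0.040 on total counts and 0.067 without liver transcripts, PGAM2 0.15 and TIGAR -0.096 without liver transcripts. In libraries without liver transcripts, the drip fits compare high drip male replicates 5 and 6 with low drip male replicate 4 alone. The sex fits there compare that same male with low drip female replicates 1, 2 and 3. In the 9 animals with their own number, replicate 3 is the only low drip female.

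Leaving out 1 animal, drip folds ran from -0.019 to 0.094 for PFKM and from -0.090 to 0.050 for GPI, and sex folds from -0.064 to 0.019 for LDHA and from -0.17 to 0.0029 for PKM. The median r of the 15 pairs ran from 0.400 to 0.683 and that of LDHA's 5 pairs from 0.128 to 0.324, with LDHA and PFKM from -0.135 to 0.131 and LDHA and GPI from -0.094 to 0.354. On total counts LDHA's median r was -0.0986, with -0.362 for PFKM, -0.442 for GPI, -0.0591 for ENO3 and -0.0986 for PKM, and GPI with PKM and ENO3 with PKM no longer passed. Without liver transcripts r was -0.0391 for LDHA with GPI and -0.0746 with ENO3. On residuals from the share outside features it was -0.0619 for LDHA with PFKM, -0.0594 with GPI and -0.0317 for GPI with PGAM2. Both kinds of residuals, the age relation under other assignments, the product and sex fits on total counts and the sex fit without liver transcripts were added after the data were seen. The causes were not tested. The ratio of LDHA to LDHB and the order per length could not be run. No paired analysis was possible because replicate numbers follow accession order and pair no animals.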
